A study of Rattus norvegicus with 12 samples.

Results

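The transcription factor NRF2 and the antioxidant genes around it were followed in ventricular cardiomyocytes of newborn rats under stretch. The group held 37 genes, taken by the gene names on the array. No value entered that rule, but the genes were chosen with earlier results of these data known. They were the gene of NRF2 (Nfe2l2) and that of its inhibitor Keap1, the glutathione and thioredoxin systems, the peroxiredoxins, enzymes that supply NADPH, conjugating and exporting proteins, superoxide dismutases, catalase and glutathione peroxidases, and the metallothioneins. The array carried 44 probes for 36 of these genes among its 30367 probes. No probe bore the name Pgd, and the single probe of Gclm was well above background on 0 of 12 arrays. The other 35 genes passed the filter on dim probes and were tested.

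Primary cardiomyocytes were kept for 24 h in medium with 10% serum on flexible plates coated with collagen. They were then left unstretched (control) or stretched rhythmically along both axes by 20% for 2, 6 or 24 h. Every group had 3 cultures (biological replicates per the labels) and every culture 1 array, which makes 12 arrays in 4 groups. No source used here says whether the cultures were separate isolations, so each error describes the spread between cultures, which may be technical. The labels give no culture time for the controls, so stretch time and time in culture cannot be told apart. The same 3 control arrays served all 3 stretch times.

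NRF2 is held in the cytoplasm by KEAP1, which passes it on for degradation. Oxidants and electrophiles modify KEAP1, and NRF2 then enters the nucleus, pairs with a small MAF protein and binds antioxidant response elements in its target genes. Its targets make and recycle glutathione and thioredoxin and supply the NADPH that both need. Metallothioneins are small cysteine-rich proteins that bind zinc and copper and are switched on by the zinc sensor MTF1. In the heart these systems clear the superoxide and hydrogen peroxide that mitochondria and oxidases give off.

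Promoter sequences from RefSeq (rat build GRCr8, 250 bases before to 50 bases after the start of the gene) were read for 33 of the 37 genes. Gsr, Txnip, Prdx6 and Sod3 had no entry. The core of the antioxidant response element, TGACNNNGC on either strand, stood in the window of 11 of the 33 genes, against 12.1% of 33469 promoters. Its longer form TGACTCAGC stood in 4 of them (Me1, Prdx1, Gstp1 and Mt2A), against 0.42% of all promoters. These 4 matches also hold the shorter motif TGANTCA, the type bound by AP-1 factors, which was in 7.33% of all promoters. Of the genes that were later called higher at 24 h, 4 of 11 with an entry held TGACNNNGC, as did 1 of 4 called lower and 5 of 16 not called. A gene counted when any of its listed promoters held the motif, while the shares of all promoters are over single promoters, so the measures are not alike. A match describes letters in this window and not a bound site.

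The following 4 promoters are shown because their genes rose at 24 h and hold a match, which is in capitals, starting 167 (Me1), 135 (Prdx1), 61 (Gstp1) and 78 (Txnrd1) bases before the start. For Txnrd1, 1 of 2 promoters in the table is shown. They lie at chr8:96540195-96540494, minus strand (Me1), chr5:135383656-135383955, plus strand (Prdx1), chr1:210769656-210769955, minus strand (Gstp1) and chr7:22755855-22756154, minus strand (Txnrd1).
Me1: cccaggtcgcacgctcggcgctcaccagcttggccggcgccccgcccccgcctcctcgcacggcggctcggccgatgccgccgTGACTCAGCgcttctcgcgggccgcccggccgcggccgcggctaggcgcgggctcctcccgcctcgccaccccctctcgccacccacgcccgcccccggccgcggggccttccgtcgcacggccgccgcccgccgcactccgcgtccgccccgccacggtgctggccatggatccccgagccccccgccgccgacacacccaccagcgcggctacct
Prdx1: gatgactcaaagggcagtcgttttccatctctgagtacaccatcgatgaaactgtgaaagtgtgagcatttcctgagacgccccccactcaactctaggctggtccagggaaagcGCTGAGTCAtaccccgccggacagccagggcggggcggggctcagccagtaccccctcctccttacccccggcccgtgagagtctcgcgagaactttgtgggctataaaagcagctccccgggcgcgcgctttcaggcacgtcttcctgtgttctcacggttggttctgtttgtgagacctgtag
Gstp1: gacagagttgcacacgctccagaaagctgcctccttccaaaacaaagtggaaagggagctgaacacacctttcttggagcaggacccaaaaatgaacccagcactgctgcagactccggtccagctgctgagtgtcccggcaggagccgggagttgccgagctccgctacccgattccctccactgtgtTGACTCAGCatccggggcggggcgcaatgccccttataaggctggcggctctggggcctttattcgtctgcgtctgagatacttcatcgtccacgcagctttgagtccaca
Txnrd1: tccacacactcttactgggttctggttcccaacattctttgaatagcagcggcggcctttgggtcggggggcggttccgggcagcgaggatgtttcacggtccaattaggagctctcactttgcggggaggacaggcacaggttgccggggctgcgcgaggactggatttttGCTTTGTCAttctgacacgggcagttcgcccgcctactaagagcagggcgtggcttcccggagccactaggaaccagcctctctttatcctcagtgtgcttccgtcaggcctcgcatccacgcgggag

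Srxn1, the gene of the group with the largest rise at 24 h, is also shown, although its window held no TGACNNNGC. It held 2 matches of TGANTCA, in capitals, 62 and 5 bases before the start (chr3:161064562-161064861, plus strand). The match at 5 bases is followed by GC and reads TGAGTCAGC, the longer form TGACTCAGC with G in place of its first C. Forms of the antioxidant response element with G at that place were not searched for.
Srxn1: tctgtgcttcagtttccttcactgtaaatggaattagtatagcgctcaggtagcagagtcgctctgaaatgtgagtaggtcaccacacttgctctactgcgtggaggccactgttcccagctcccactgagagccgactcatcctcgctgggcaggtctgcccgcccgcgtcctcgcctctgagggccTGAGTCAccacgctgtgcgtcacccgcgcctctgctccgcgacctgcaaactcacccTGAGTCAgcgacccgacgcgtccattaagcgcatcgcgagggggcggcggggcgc

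The promoters of Mt1a and Mt2A are shown for the core of the metal response element that MTF1 binds, TGCACNC or TGCGCNC on either strand. At least 1 match was in 24.2% of all promoters and 3 or more in 1.68%. Mt1a held 6 and Mt2A 4, in capitals (chr19:10832926-10833225, minus strand and chr19:10838659-10838958, minus strand). Neither gene was called against control under the 75th percentile scaling.
Mt1a: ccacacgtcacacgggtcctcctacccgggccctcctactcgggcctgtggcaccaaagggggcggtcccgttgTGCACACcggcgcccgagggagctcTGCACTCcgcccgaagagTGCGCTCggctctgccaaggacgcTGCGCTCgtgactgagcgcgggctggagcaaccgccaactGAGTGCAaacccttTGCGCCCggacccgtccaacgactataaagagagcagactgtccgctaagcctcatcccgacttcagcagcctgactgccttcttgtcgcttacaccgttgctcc
Mt2A: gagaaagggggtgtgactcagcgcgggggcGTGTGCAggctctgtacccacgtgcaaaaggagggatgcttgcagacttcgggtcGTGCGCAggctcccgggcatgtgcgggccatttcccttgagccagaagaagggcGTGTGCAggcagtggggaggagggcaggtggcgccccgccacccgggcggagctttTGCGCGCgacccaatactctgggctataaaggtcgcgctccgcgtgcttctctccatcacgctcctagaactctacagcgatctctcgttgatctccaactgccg

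Levels are log2 signals minus the array's own 75th percentile, so 0 is the level of that percentile, and they can be compared between arrays for 1 gene but not between genes. A gene was called when its adjusted p lay below 0.05 in limma's moderated test, adjusted by the Benjamini-Hochberg method over 14375 genes. Errors beside a log2 change are standard errors of that model with n = 3 arrays per group. The 75th percentile lay between 1138 and 1672 intensity units, the share of spots well above background was 64.7% to 70.6%, and no saturation was marked (0 spots). Slide 1 held 8 arrays (the controls, the 2 h group and 6 h replicates 1 and 2) and slide 2 held 4 (6 h replicate 3 and the 24 h group). All 11 cardiomyocyte markers examined were above background, as were 10 of 10 fibroblast, 8 of 8 endothelial and 9 of 11 macrophage and leukocyte markers. In such bulk samples, fewer cells of a type and less RNA per cell cannot be told apart.

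At 24 h most genes of glutathione synthesis and of the thioredoxin system were higher, the glutathione peroxidases Gpx1 and Gpx3 were lower, and the regulators and metallothioneins gave no call under the 75th percentile scaling. Of the 35 genes, 12 were called higher (34.3%) and 4 lower after 24 h of stretch, against 16% higher and 31.9% lower among all genes (47.9% in either direction). At 2 h only Srxn1 and Osgin1 were called, both higher, against 9.34% of all genes in either direction, 3.1% higher and 6.25% lower. At 6 h they were joined by Gclc, Slc7a11 and Me1, which made 5 higher and 0 lower, against 16.9% of all genes in either direction, 4.88% higher and 12% lower. The median log2 change of the 35 genes was 0.09, 0.04 and 0.09 at 2, 6 and 24 h, against -0.01, -0.05 and -0.08 over all genes. At 2 h, 31.4% of the 35 (11 genes) had an unadjusted p below 0.05, against 24.6% of all genes, and at 6 h 25.7% (9 genes), against 32.3%. All 24 h arrays lay on another slide than the controls, and with slide as a block 6 of the 16 calls at 24 h were left (Srxn1, Osgin1, Gclc, Me1, Txn1 and Gpx1).

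Groups without overlap, where every stretched array lies on 1 side of every control array, were more frequent than calls. At 2 h, 13 of the 35 genes lay wholly above the controls and 1 wholly below, against 12% and 16.5% of all genes. At 6 h it was 13 above and 4 below, against 12.9% and 26.6%. At 24 h it was 14 above and 6 below, against 20.2% and 38.7%. The controls are shared, so the 3 times are not independent of each other.

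**Figure D1:**
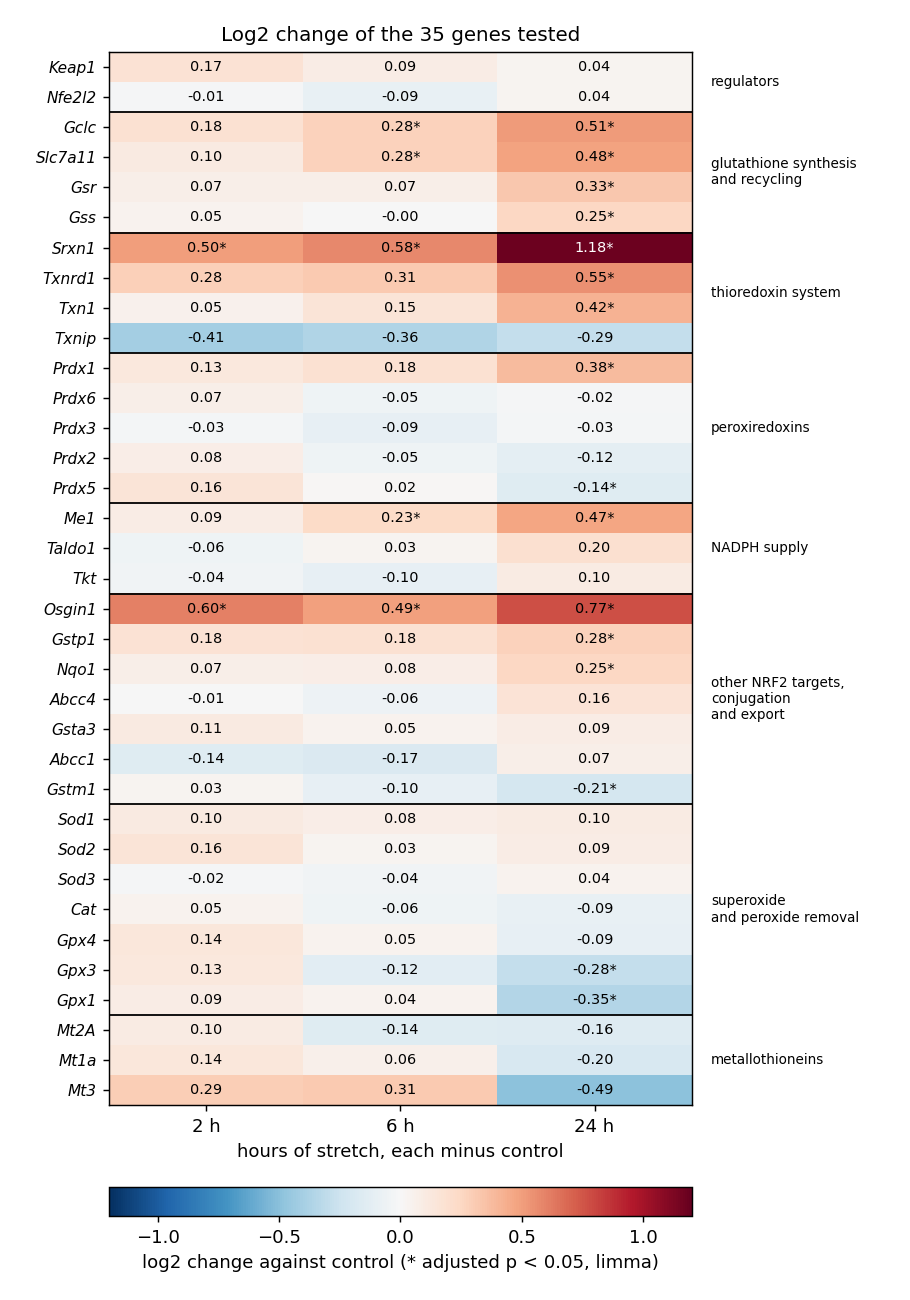
Log2 change against control for the 35 genes tested at 2, 6 and 24 h (columns), grouped by role, with red for higher, blue for lower and an asterisk for an adjusted p below 0.05 in limma (n = 3 arrays per group). Asterisks number 2 at 2 h, 5 at 6 h and 16 at 24 h, and the deepest red is Srxn1 at 24 h (1.18).

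The plot of changes by role shows where the 16 calls at 24 h fall. All 4 tested genes of glutathione synthesis and recycling were called higher, as were 3 of 4 thioredoxin genes and 3 of 7 of the other NRF2 targets. Of 7 genes for superoxide and peroxide removal, 0 were called higher and 2 lower.

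The regulators come first. Nfe2l2 encodes NRF2 itself, and its control arrays read 2.68, 2.54 and 2.47, those of 2 h 2.53, 2.56 and 2.55, those of 6 h 2.52, 2.41 and 2.48 and those of 24 h 2.60, 2.64 and 2.56. Each stretched group overlapped the controls. The log2 changes at 2, 6 and 24 h were -0.01 ± 0.06, -0.09 ± 0.06 and 0.04 ± 0.06. None was called under the percentile scaling (adjusted p = 0.91, 0.30 and 0.61 in limma). All 6 h arrays lay below those of 2 h and of 24 h. Neither difference was called under that scaling (adjusted p = 0.40 and 0.12 in limma). Keap1, the adaptor that sends NRF2 to the proteasome, changed by 0.17 ± 0.07, 0.09 ± 0.07 and 0.04 ± 0.07. It was not called at any time under the percentile scaling (adjusted p = 0.17, 0.41 and 0.70). Nfe2l2 and Keap1 were both called higher at 24 h with array median (0.23 each) and spike-in scaling (0.47 each). Array median scaling also called Nfe2l2 higher at 24 h than at 6 h (0.23). Spike-in scaling called Keap1 higher at 6 h (0.58). NRF2 is controlled mainly at the level of the protein, which the arrays do not read.

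All 4 tested genes of glutathione synthesis and recycling were called higher at 24 h, of which Gclc was also called with slide as a block. Gclc, the catalytic subunit of the enzyme that limits glutathione synthesis (probe at chr8:82762574-82762633 on rn4), read 1.73, 1.86 and 1.76 on the control arrays, 1.91, 2.02 and 1.97 at 2 h, 2.01, 2.16 and 2.02 at 6 h and 2.27, 2.39 and 2.23 at 24 h. Every stretched array lay above every control array, and the 24 h arrays lay above all others. The change was 0.18 ± 0.06 at 2 h and not called (adjusted p = 0.10), 0.28 ± 0.06 at 6 h (adjusted p = 0.014) and 0.51 ± 0.06 at 24 h (1.43-fold, adjusted p = 1.0e-04, limma). Gclm, the other subunit of that enzyme (probe at chr2:218915215-218915274), was not well above background in any group, so no change is given for it.

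Slc7a11, the transporter that brings in cystine for glutathione (probe at chr2:139241468-139241527), read -0.92, -0.89 and -0.81 on the control arrays, -0.84, -0.67 and -0.80 at 2 h, -0.60, -0.61 and -0.57 at 6 h and -0.37, -0.26 and -0.54 at 24 h. The 2 h arrays overlapped the controls and the 6 h and 24 h arrays did not. It rose by 0.28 ± 0.07 at 6 h (adjusted p = 0.023) and by 0.48 ± 0.07 at 24 h (1.40-fold, adjusted p = 3.2e-04, limma). Its 6 h call was lost without control replicate 1 or 2 or without 6 h replicate 1 or 3, with adjusted p between 0.064 and 0.067. A second Slc7a11 probe was also called at 24 h (0.43).

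Gss, which completes glutathione, was near its control level until 6 h and higher at 24 h. Its 24 h arrays read 0.21, 0.30 and 0.21, against -0.15, 0.02 and 0.10 on the control arrays, a change of 0.25 ± 0.06 (adjusted p = 0.0093), while the 6 h change was -0.00 ± 0.06. Gsr, glutathione reductase, which recycles oxidised glutathione with NADPH, read -2.82, -2.73 and -2.84 at 24 h, against -3.30, -2.94 and -3.12 on the control arrays. Its change of 0.33 ± 0.10 was called (adjusted p = 0.018, limma), and all 3 of its 24 h arrays lay above the controls. With slide as a block neither Gss (adjusted p = 0.18) nor Gsr (adjusted p = 0.12) was called, and Gsr was also lost without control replicate 1 (adjusted p = 0.065) or 24 h replicate 2 (adjusted p = 0.061).

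The thioredoxin system held the largest change of the group. Srxn1, sulfiredoxin, which repairs over-oxidised peroxiredoxins (probe at chr3:142462543-142462602), read 2.08, 2.14 and 2.02 on the control arrays, 2.59, 2.61 and 2.55 at 2 h, 2.58, 2.78 and 2.63 at 6 h and 3.17, 3.57 and 3.04 at 24 h. No stretched array overlapped a control array, and the 2 h and 6 h arrays overlapped each other. It rose by 0.50 ± 0.11 at 2 h (1.42-fold, adjusted p = 0.022), by 0.58 ± 0.11 at 6 h (adjusted p = 0.0075) and by 1.18 ± 0.11 at 24 h (2.26-fold, adjusted p = 2.0e-05, limma). Its 2 h call was lost without any 1 of the control arrays or without 2 h replicate 1 or 2, with adjusted p between 0.052 and 0.072.

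Txn1, thioredoxin, which reduces disulfides in other proteins (probe at chr5:75921410-75922750), read 5.21, 5.12 and 5.14 on the control arrays, 5.28, 5.12 and 5.22 at 2 h, 5.31, 5.32 and 5.28 at 6 h and 5.54, 5.63 and 5.55 at 24 h. The 2 h arrays overlapped the controls, and the 24 h arrays were above all others. Its changes were 0.15 ± 0.05 at 6 h and not called (adjusted p = 0.073), and 0.42 ± 0.05 at 24 h (1.33-fold, adjusted p = 1.2e-04, limma). Txnrd1, thioredoxin reductase, which restores thioredoxin with NADPH, read 0.18, 0.70 and 0.31 at 24 h, against -0.01, -0.26 and -0.19 on the control arrays. It was called higher at 24 h (0.55 ± 0.12, 1.47-fold, adjusted p = 0.0036), as was its second probe (0.51), but not at 2 h (0.28 ± 0.12, adjusted p = 0.17) or 6 h (0.31 ± 0.12, adjusted p = 0.10). With slide as a block its 24 h change was the same size (0.55) and not called (adjusted p = 0.14).

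Txnip, which binds thioredoxin and blocks it, had negative changes that did not pass the test. Its arrays read 1.04, 1.37 and 1.07 in controls, 0.86, 0.65 and 0.74 at 2 h, 0.83, 1.02 and 0.55 at 6 h and 0.70, 1.04 and 0.87 at 24 h. The 2 h and 6 h arrays all lay below the controls, and 1 of the 24 h arrays did not. The changes were -0.41 ± 0.13, -0.36 ± 0.13 and -0.29 ± 0.13 (adjusted p = 0.085, 0.088 and 0.097 at 2, 6 and 24 h in limma). Normexp background correction called the 2 h change (-0.40, adjusted p = 0.041), spike-in scaling gave 0.13 at 6 h and 0.14 at 24 h, and slide as a block gave 0.09 at 24 h.

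Among the 5 peroxiredoxins, which remove hydrogen peroxide with thioredoxin or glutathione, Prdx1 and Prdx5 moved in opposite directions at 24 h. Prdx1 read 4.53, 4.75 and 4.53 at 24 h, against 4.28, 4.22 and 4.18 on the control arrays, and rose by 0.38 ± 0.06 (1.30-fold, adjusted p = 5.2e-04, limma). Prdx5, a peroxiredoxin of mitochondria and peroxisomes, read 3.15, 3.05 and 3.06 at 24 h, against 3.25, 3.23 and 3.21 on the control arrays. Its change of -0.14 ± 0.05 (adjusted p = 0.027) turned to 0.053 with array median scaling and 0.29 with spike-in scaling, and was not called in 10 of 22 settings. Prdx2, Prdx3 and Prdx6 changed by -0.12, -0.03 and -0.02 at 24 h and were not called.

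Of the 3 tested NADPH-supplying genes, Me1 was the one called against control under the 75th percentile scaling. Me1, cytosolic malic enzyme (probe at chr8:91839922-91839981), read 2.99, 3.04 and 2.98 on the control arrays, 3.11, 3.06 and 3.11 at 2 h, 3.23, 3.28 and 3.20 at 6 h and 3.43, 3.60 and 3.41 at 24 h. Each stretched group lay wholly above the controls, and the 24 h arrays lay above those of 6 h. It rose by 0.23 ± 0.05 at 6 h (adjusted p = 0.016) and by 0.47 ± 0.05 at 24 h (1.39-fold, adjusted p = 6.3e-05, limma), and its second probe was also called at 24 h (0.36). The 6 h call was lost without control replicate 3 or 6 h replicate 1 or 2, with adjusted p between 0.053 and 0.056. Taldo1 and Tkt, of the non-oxidative pentose phosphate pathway, changed by 0.20 ± 0.09 (adjusted p = 0.086) and 0.10 ± 0.05 (adjusted p = 0.11) at 24 h. Tkt was called higher at 24 h under quantile, array median and spike-in scaling, normexp and the series matrix (0.17 to 0.53). Taldo1 was called under array median (0.39) and spike-in scaling (0.63) and without 24 h replicate 1 (0.26).

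**Figure D2:**
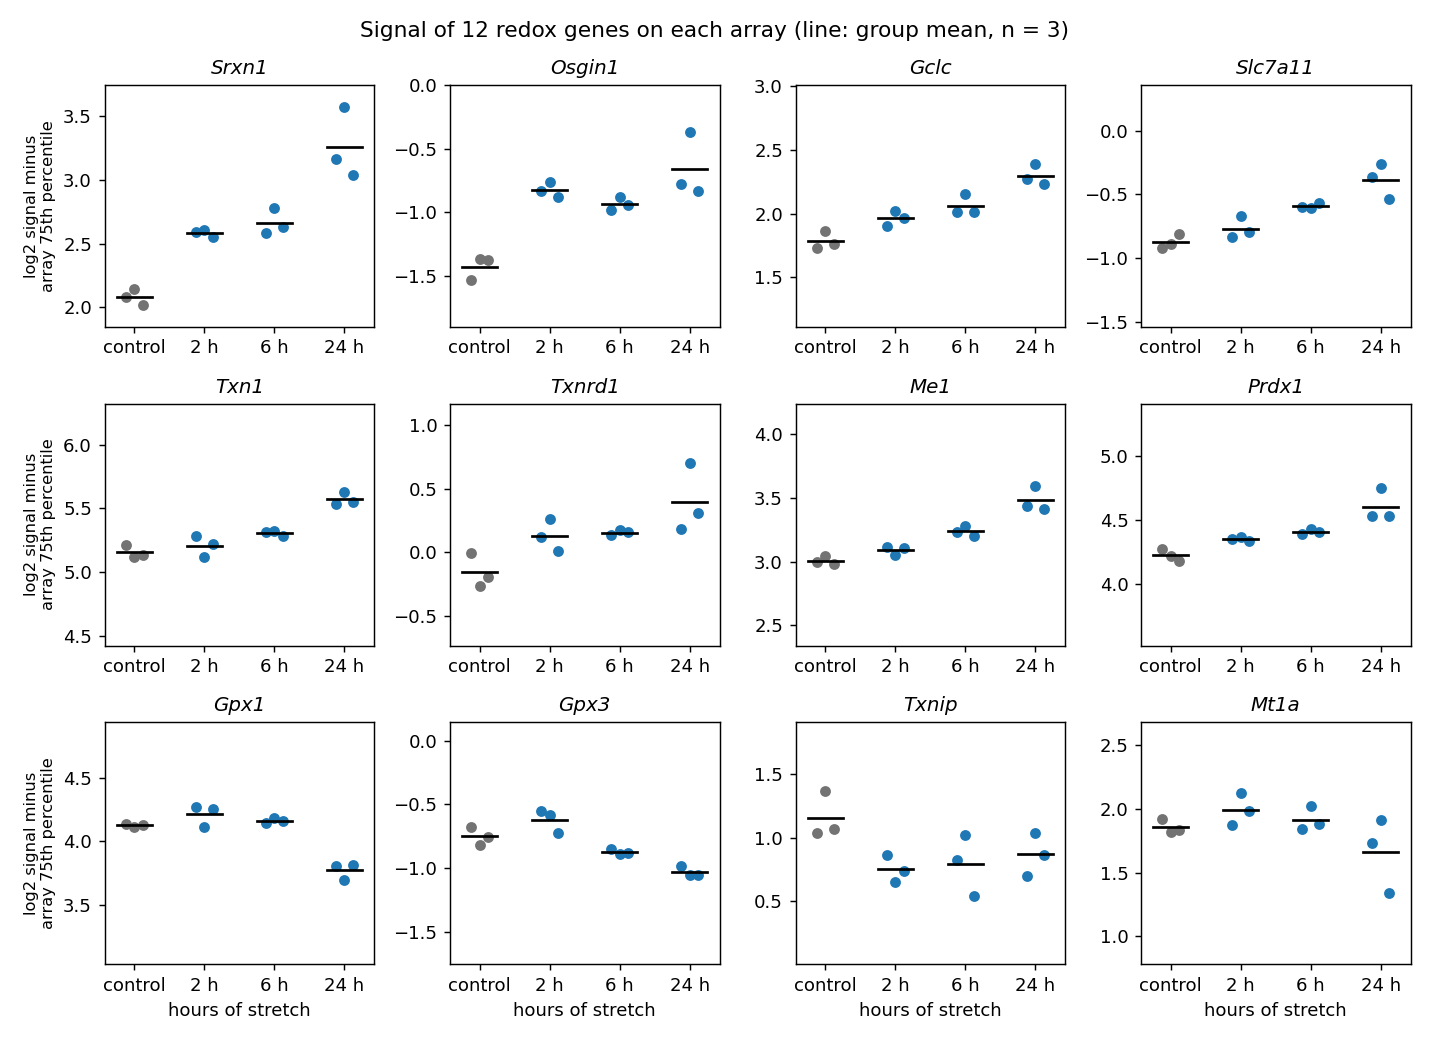
Level of 12 genes on each of the 12 arrays (points; grey for control, blue for stretch) with the group mean as a line, n = 3; the vertical axis is log2 signal minus the array's 75th percentile and spans 1.9 log2 units in each panel. Srxn1, Osgin1 and Gclc have no stretched array at or below a control array, while Gpx1 is lower at 24 h and Txnip and Mt1a overlap the controls at 24 h.

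The plot of levels by array also shows 1 array of the 24 h group standing above the other two in most panels of rising genes. Among the other NRF2 targets, Osgin1, an NRF2-induced regulator of growth and cell death (probe at chr19:49689658-49689717), read -1.53, -1.37 and -1.38 on the control arrays, -0.83, -0.76 and -0.88 at 2 h, -0.98, -0.88 and -0.94 at 6 h and -0.77, -0.37 and -0.83 at 24 h. The 2 h arrays overlapped those of 24 h, and no stretched array overlapped a control. It rose by 0.60 ± 0.11 at 2 h (1.52-fold, adjusted p = 0.0078), by 0.49 ± 0.11 at 6 h (adjusted p = 0.011) and by 0.77 ± 0.11 at 24 h (1.70-fold, adjusted p = 2.1e-04, limma). These 3 calls held in all settings tried.

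Nqo1, a quinone reductase often used as a marker of NRF2 activity, read 1.99, 2.22 and 2.07 at 24 h, against 1.88, 1.83 and 1.82 on the control arrays. Its rise of 0.25 ± 0.07 (1.19-fold, adjusted p = 0.017, limma) was lost without 24 h replicate 2 (adjusted p = 0.067), without control replicate 3 (adjusted p = 0.054), with normexp (adjusted p = 0.095) and with slide as a block (adjusted p = 0.27). Gstp1, a glutathione transferase, rose by 0.28 ± 0.08 (adjusted p = 0.020). That call was lost without 24 h replicate 2 (adjusted p = 0.065) or control replicate 1 (adjusted p = 0.060) and with slide as a block (adjusted p = 0.24).

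Gstm1, another glutathione transferase, moved the other way, with 0.35, 0.49 and 0.26 at 24 h against 0.58, 0.58 and 0.58 on the control arrays. Its change of -0.21 ± 0.06 (adjusted p = 0.016, limma) became -0.01 with array median scaling and 0.22 with spike-in scaling, and with slide as a block it was not called (adjusted p = 0.43). Gsta3, which its accession now names Gsta1, and the exporters Abcc4 and Abcc1 changed by 0.09, 0.16 and 0.07 at 24 h. None of them was called under the percentile scaling. Abcc4 was called higher at 24 h under quantile, array median and spike-in scaling, normexp and the series matrix (0.20 to 0.59). Abcc1 was called higher at 24 h with spike-in scaling (0.50) and without control replicate 2 (0.24). Spike-in scaling also called Gsta3 higher at 24 h (0.52). Transferases of this family are alike in sequence, so their probes may share signal. A second of the 3 Abcc1 probes was called higher (0.24, adjusted p = 0.031 over all probes), and the other gave -0.16.

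The genes for superoxide and peroxide removal gave 2 calls at 24 h, both lower. Gpx1, the main cytosolic glutathione peroxidase and a selenoprotein, read 4.14, 4.11 and 4.12 on the control arrays, 4.27, 4.11 and 4.26 at 2 h, 4.15, 4.18 and 4.16 at 6 h and 3.80, 3.70 and 3.81 at 24 h. The 24 h arrays lay below all 9 others. It fell by 0.35 ± 0.05 at 24 h (1.28-fold lower, adjusted p = 3.4e-04, limma), and spike-in scaling turned this to 0.077.

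Gpx3, the secreted glutathione peroxidase, read -0.68, -0.82 and -0.75 on the control arrays, -0.55, -0.58 and -0.73 at 2 h, -0.85, -0.89 and -0.88 at 6 h and -0.99, -1.06 and -1.06 at 24 h. The 2 h arrays overlapped the controls, and the 6 h and 24 h arrays lay below them. It fell by 0.28 ± 0.06 at 24 h (adjusted p = 0.0022, limma), and the change was -0.09 with array median scaling, where it was not called, and 0.15 with spike-in scaling. The fit with slide as a block did not call it (adjusted p = 0.13). The other 5 genes gave small changes at 24 h. These were 0.10 for Sod1 and 0.09 for Sod2, the cytosolic and mitochondrial superoxide dismutases, and 0.04 for the secreted Sod3. Catalase (Cat) changed by -0.09 and Gpx4, which protects membrane lipids, by -0.09. Under the 75th percentile scaling none of these 5 was called against control at any time. Sod1 was called higher at 24 h under quantile, array median and spike-in scaling, normexp and the series matrix (0.15 to 0.53). Sod2 and Sod3 were called at 24 h with array median (0.29 and 0.24) and spike-in scaling (0.52 and 0.47), and Gpx4 at 2 h without 2 h replicate 2 (0.19).

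No metallothionein was called against control under the 75th percentile scaling. Their probes lie next to one another, at chr19:11261631-11261690 (Mt1a, now named Mt1), chr19:11267834-11267893 (Mt2A) and chr19:11284627-11284686 (Mt3) on rn4. Mt1a read 1.92, 1.82 and 1.83 on the control arrays, 1.88, 2.12 and 1.99 at 2 h, 1.84, 2.02 and 1.88 at 6 h and 1.74, 1.91 and 1.34 at 24 h. The 24 h arrays spread over more than 0.5 log2 units and 1 of them lay within the control range. The Mt1a changes were 0.14 ± 0.12, 0.06 ± 0.12 and -0.20 ± 0.12 at 2, 6 and 24 h (adjusted p = 0.54, 0.79 and 0.22 in limma). Without 24 h replicate 2, the array highest of its group, Mt1a was called lower at 24 h (-0.32, adjusted p = 0.0497), and spike-in scaling called it higher at 6 h (0.54).

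Mt2A behaved alike, with 0.51, 0.71 and 0.33 at 24 h against 0.80, 0.57 and 0.65 on the control arrays and a change of -0.16 ± 0.11 (adjusted p = 0.25). The negative 24 h changes of Mt1a and Mt2A were 0.00 and 0.04 with array median scaling. Mt3, a form known from brain, was dim: it was well above background on 3 of 3 control arrays, on 2 of 3 at 2 h, on 3 of 3 at 6 h and on 1 of 3 at 24 h. Its change at 24 h was -0.49 ± 0.20 (adjusted p = 0.062, limma). It was called lower at 24 h with the replicate number as a block (-0.49) and without 24 h replicate 3 (-0.64). Higher Mt3 was called at 6 h with spike-in scaling (0.80), normexp (0.20) and the series matrix (0.25), and at 2 h with the series matrix (0.28).

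Between consecutive times, most of the movement came after 6 h. From 2 h to 6 h, 1 gene was called (10.6% of all genes), Gpx3, which was lower at 6 h than at 2 h, with a change of -0.25 ± 0.06 (adjusted p = 0.022, limma). That call did not hold in 11 of 23 settings, slide 1 alone among them (adjusted p = 0.11). From 6 h to 24 h, 10 genes were called, 7 higher and 3 lower, against 24.9% of all genes (9.71% higher and 15.2% lower). Higher were Srxn1 (0.60 ± 0.11, adjusted p = 0.0038), Txn1 (0.27), Gss (0.25), Me1 (0.24), Gclc (0.24), Prdx1 (0.20) and Tkt (0.20). Lower were Mt3 (-0.81 ± 0.20, adjusted p = 0.014), Gpx1 (-0.39 ± 0.05, adjusted p = 4.4e-04) and Prdx5 (-0.16). The Mt3 difference rests on 24 h arrays of which 1 of 3 was well above background, so its size is uncertain. With spike-in scaling 1 of the 35 genes was called from 6 h to 24 h (7.33% of all genes), and with slide as a block 2 (7.60% of all genes). Without 24 h replicate 2 or without 6 h replicate 1 it was 6 (18.1% and 17.5% of all genes). Osgin1, already called at 2 h, changed by 0.28 ± 0.11 between 6 h and 24 h and was not called (adjusted p = 0.078). The moderated F test over the 4 groups called 17 of the 35 genes, against 52.8% of all genes.

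The split into risers and fallers depends on how arrays were scaled. With array median scaling, which moves the median of all genes to 0.11 at 24 h, 22 of the 35 genes were called higher and 1 lower at 24 h, against 38.7% and 15.3% of all genes. With spike-in scaling, which moves that median to 0.35, 22 were called higher and 0 lower, against 34.2% and 4.05% of all genes. Among all genes called at 24 h, 66.5% were lower with the 75th percentile, 28.3% with the array median and 10.6% with the spike-ins. The 12 genes called higher at 24 h were also called higher under quantile, array median and spike-in scaling. At 6 h the 5 genes called higher were likewise called under each of these, and spike-in scaling called 23, against 49% of all genes.

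Slide and group overlap at 24 h, since all 24 h arrays lay on 1 slide and all controls on the other. Only the 6 h group, split over both, lets a fit with slide as a block estimate the slide. That fit called 6 of the 35 genes, 5 of them higher after 24 h and 1 lower, against 14.2% of all genes (3.45% higher and 10.8% lower). The 5 higher were Srxn1 (1.23 ± 0.21, adjusted p = 0.0060), Osgin1 (0.78 ± 0.20, adjusted p = 0.030), Gclc (0.58 ± 0.12, adjusted p = 0.011), Me1 (0.53 ± 0.10, adjusted p = 0.0090) and Txn1 (0.45 ± 0.10, adjusted p = 0.015). Gpx1 was the lower one (-0.35 ± 0.10, adjusted p = 0.045). Slc7a11 and Prdx1 changed by a similar size (0.45 and 0.39) and each had an adjusted p of 0.054.

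At 6 h the block left 4 calls (Gclc, Srxn1, Me1 and Osgin1), against 11.2% of all genes, and at 2 h the same 2 as without it, against 8.17%. Slide 1 alone gave 2 calls at 2 h (5.63% of all genes) and 5 at 6 h (9.44% of all genes). From 6 h to 24 h the block left Mt3 (-1.09 ± 0.26, adjusted p = 0.035) and Gpx1 (-0.39 ± 0.08, adjusted p = 0.017), against 7.60% of all genes. Mt3 carries the same limit here, with 1 of 3 arrays at 24 h well above background. Slide 2 alone held a single 6 h array, so only sizes of change from 6 h to 24 h are given for it. There the change was 0.63 for Srxn1 and -0.39 for Gpx1.

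**Figure D3:**
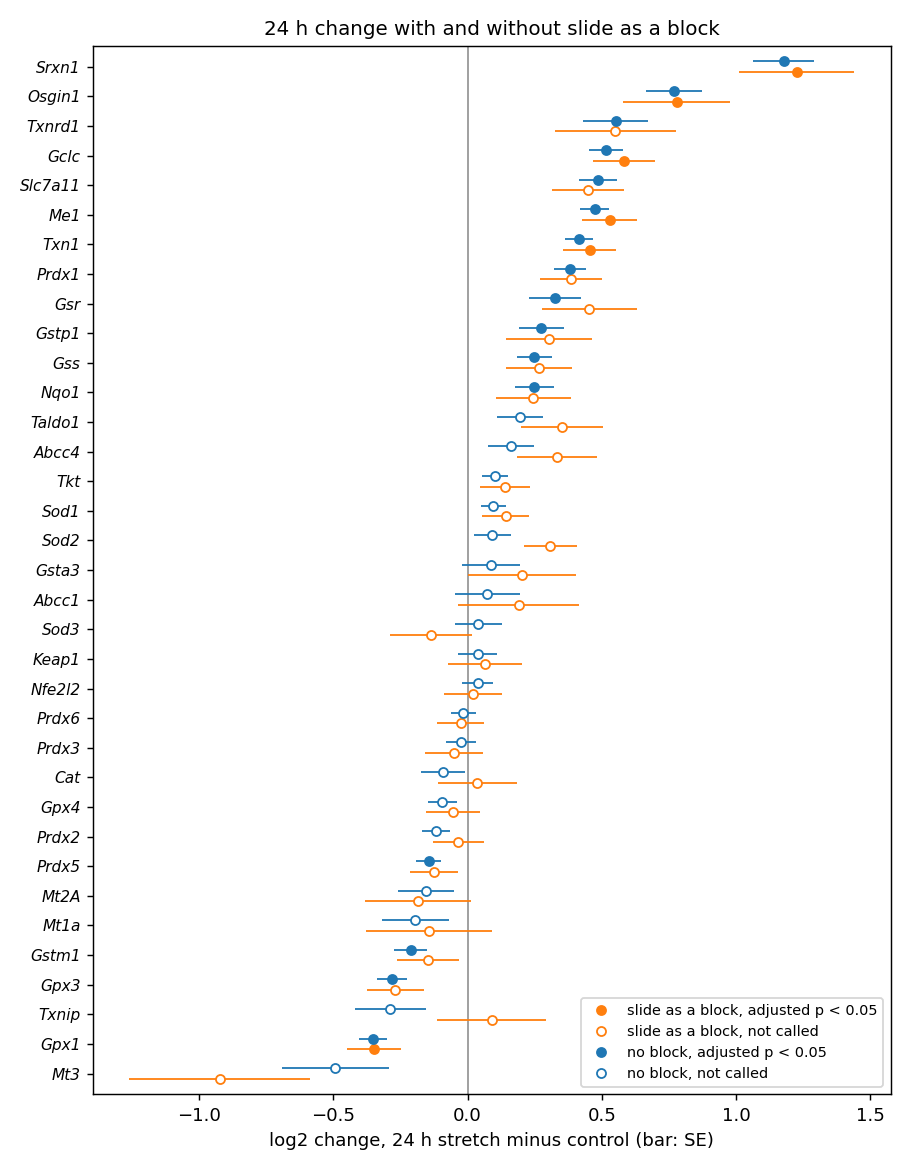
Log2 change at 24 h against control for the 35 genes without a block (blue) and with slide as a block (orange), with the standard error as a bar, filled points for an adjusted p below 0.05 in limma and n = 3 arrays per group. The 2 estimates lie close for the 12 rising genes, the errors are wider with the block, and filled points fall to 6 of 35.

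The plot of 24 h changes with and without the block shows the wider error as the main difference for most genes. The exceptions include Txnip (-0.29 without and 0.09 with the block), Sod2 (0.09 and 0.31) and Mt3 (-0.49 and -0.92), none of them called in either fit.

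A single array stood highest in the 24 h rises. Replicate 2 of the 24 h group gave the highest of the 3 values for 12 of 12 genes called higher, whereas it was the highest for 52.7% of all genes called higher and for 33.5% of all genes. It also had the highest 75th percentile of the 12 arrays (1672), with 65.5% of spots above background. Without it 9 of the 35 genes were called higher and 4 lower, against 13.4% and 27% of all genes. Nqo1, Gsr and Gstp1 were lost among the higher ones, and among the lower ones Prdx5 was lost (adjusted p = 0.083) and Mt1a gained.

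Markers of other cells moved over the same hours. At 24 h, 9 of 9 tested macrophage and leukocyte markers were called lower, with a summed linear level of 5.69 to 6.59, against 16.1 to 16.2 on the control arrays (in units of the array's 75th percentile). Cd163 and Mrc1 of that list did not pass the filter. Of 10 fibroblast markers 8 were lower and 0 higher (121 to 141, against 169 to 181 in controls), and of 11 cardiomyocyte markers 7 were lower and 2 higher (787 to 851, against 921 to 978 in controls). Endothelial markers gave 6 lower and 1 higher of 8 (2.30 to 2.63, against 3.15 to 3.35 in controls). Smooth muscle markers gave 5 lower and 2 higher of 8, but their sum overlapped the controls (61.7 to 63.5, against 62.2 to 63.7). At 2 h, when Srxn1 and Osgin1 were already called, the macrophage sum was 16.9 to 19.6, against 16.1 to 16.2 in controls. The part of these shifts in the changes of the antioxidant genes was not tested.

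Further genes of the pathway were read from lists chosen by function, and their counts stand beside the shares of all genes called, which were 3.1% higher and 6.25% lower at 2 h, 4.88% and 12% at 6 h, and 16% and 31.9% at 24 h. Of 58 calls against control of the list genes named here other than Sqstm1, 13 held in every alternative, 11 were lost in more than 5 and 22 with slide as a block. Of 15 partners and regulators of NRF2, 5 were called higher and 1 lower at 2 h, 3 and 1 at 6 h, and 9 and 1 at 24 h (median log2 change 0.12, 0.10 and 0.27). The small MAF proteins, which pair with NRF2 or with its competitor BACH1 on DNA, were among the early ones. Mafk was higher at all 3 times (0.62 ± 0.08, 0.35 ± 0.08 and 0.57 ± 0.08 at 2, 6 and 24 h, adjusted p = 0.0024, 0.015 and 2.5e-04, limma). Mafg was also called at each time (0.27, 0.21 and 0.34), and Maff was called at 2 h (0.64 ± 0.13, adjusted p = 0.014) and at 24 h (0.52). The block for slide left all 3 called at 2 h, but at 6 h neither Mafk (adjusted p = 0.050) nor Mafg (adjusted p = 0.084), and at 24 h neither Mafg (adjusted p = 0.10) nor Maff (adjusted p = 0.17). At 6 h the block left 1 of the 15 higher and 0 lower.

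Bach1, which represses NRF2 targets, read -4.01, -3.97 and -4.07 at 24 h, against -4.75, -4.54 and -4.67 on the control arrays, and rose by 0.64 ± 0.08 (adjusted p = 8.4e-05). Trim16, a TRIM family ubiquitin ligase, read -2.89, -2.61 and -2.88 at 24 h, against -3.83, -4.07 and -4.08 on the control arrays, and was called higher at each time (0.48, 0.44 and 1.20 ± 0.09, with adjusted p = 5.5e-06 at 24 h, limma). Sesn1, a sestrin, fell by 0.62 ± 0.08 at 24 h (adjusted p = 1.2e-04), and spike-in scaling did not call it (adjusted p = 0.42 in limma). With slide as a block, 4 of the 15 were higher and 1 lower at 24 h: Trim16 (1.38), Bach1 (0.75), Mafk (0.51) and Sqstm1 (0.51) were higher and Sesn1 (-0.56) lower. Sqstm1, an autophagy adaptor that binds KEAP1, was named after its value was seen.

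Of 34 other NRF2-linked and detoxifying genes, 2 were called higher and 1 lower at 2 h, 7 and 4 at 6 h, and 12 and 10 at 24 h (slide as a block at 24 h gave 5 and 4). Hmox1, haem oxygenase, changed more than any of the 35 at each time and read 2.33, 2.51 and 2.46 on the control arrays, 3.21, 3.28 and 3.02 at 2 h, 3.19, 3.43 and 3.19 at 6 h and 3.82, 4.14 and 3.58 at 24 h. The groups did not overlap the controls, and the change at 24 h was 1.42 ± 0.13 (adjusted p = 1.4e-05, limma). Akr1b8, an aldo-keto reductase, was also called higher at all 3 times (0.25, 0.53 and 0.60). Its 2 h call was lost in 18 of 23 alternatives (adjusted p up to 0.52), while those at 6 h and 24 h held in all. Gsta2 was called higher at 6 h (0.76) and 24 h (1.06) and Akr7a3 at 24 h (0.66). On the other side, Abcc3 (-0.71), Nqo2 (-0.56) and Gstm4 (-0.46) were called lower at 24 h, and Ephx1 (-0.40) and Gstt2 (-0.33) at 6 h. With spike-in scaling Abcc3, Nqo2 and Gstm4 were not called at 24 h (adjusted p = 0.24, 0.59 and 0.90 in limma). Abcc5 was the gene called lower at 2 h (-0.37). Lost in several alternatives were Abcc5 at 2 h (8 of 23), Gstt2 (10 of 23) and Gsta2 (5 of 23) at 6 h, and Gsta2 at 24 h with slide as a block (adjusted p = 0.052).

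**Figure D4:**
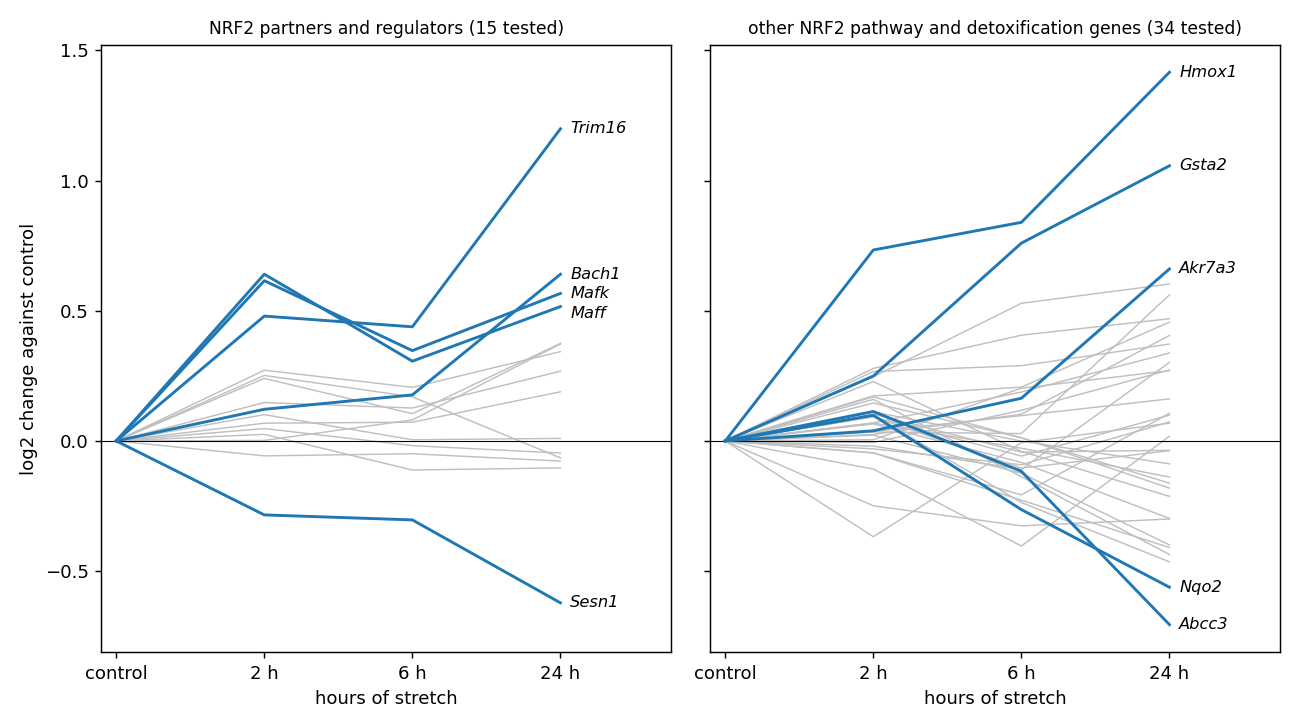
Log2 change against control over control, 2, 6 and 24 h for 15 partners and regulators of NRF2 (left) and 34 other NRF2-linked and detoxifying genes (right), 1 line per gene, with control set to 0 and named genes in blue. Hmox1 (1.42) and Trim16 (1.20) end highest, and Abcc3 (-0.71) and Sesn1 (-0.62) end lowest.

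The plot of the pathway lists shows that both lists spread in both directions by 24 h. Among 22 other redox enzymes 6 were higher and 10 lower at 24 h (median -0.13), and with slide as a block 0 and 3. The lowest were Selenop, the plasma selenium carrier (-0.84 ± 0.06, adjusted p = 3.4e-06), Nnt, a mitochondrial source of NADPH (-0.52), and Oplah (-0.45). All 3 remained called with the block, but not with spike-in scaling (adjusted p = 0.076, 0.70 and 0.93 in limma). Ggct (0.33), Gpx8 (0.27) and Glrx5 (0.23) led the higher ones, and none of these 3 was called with the block (adjusted p between 0.19 and 0.70). At 6 h 0 were higher and 2 lower, Oplah (-0.42) and Selenop (-0.36), and at 2 h 0 of 22 were called.

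Of 12 zinc and copper genes, which share their metals with the metallothioneins, 2 were higher and 4 lower at 24 h, a share near that of all genes (16% and 31.9%), and 1 and 1 with slide as a block. The zinc importer Slc39a6 rose by 0.55 ± 0.07 (adjusted p = 9.1e-05, limma) and the zinc carrier Slc30a5 by 0.32. The copper importer Slc31a1 was lower (-0.77), as were the metal importers Slc39a8 (-0.58) and Slc39a14 (-0.37). With slide as a block Slc31a1 (-0.45, adjusted p = 0.12), Slc39a14 (adjusted p = 0.10) and Slc30a5 (adjusted p = 0.21) were not called. Spike-in scaling left Slc31a1, Slc39a8 and Slc39a14 uncalled at 24 h. At 6 h Slc39a6 (0.32) was higher and Slc39a8 (-0.43) lower.

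Of 8 genes around Txnip, Arrdc3, an arrestin-domain relative of Txnip, was called lower at all 3 times (-0.42 at 2 h and -0.61 at 6 h), and its 24 h change was the largest of the 3 (adjusted p = 2.9e-06, limma). Arrdc2 was lower at 2 h (-0.51) and Arrdc4 at 6 h and 24 h (-0.86 and -0.78). The Arrdc4 call was lost in 13 of 23 alternatives at 6 h and in 11 of 22 at 24 h, slide as a block among them (adjusted p = 0.11 and 0.45), and that of Arrdc2 in 3 of 23. The muscle glucose transporter Slc2a4 was lower at 24 h (-0.68) and the general one, Slc2a1, higher (0.28). Ddit4, a stress-induced inhibitor of mTORC1, was higher at 2 h (0.41) and 24 h (0.34). With slide as a block 2 of the 8, Arrdc3 and Slc2a4, were called at 24 h, both lower. Spike-in scaling left Slc2a4 uncalled at 24 h (adjusted p = 0.28) and Arrdc3 at 2 h and 6 h (adjusted p = 0.675 and 0.559, limma).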

How the data were processed

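RNA of 12 cultures was read on 1-colour Agilent rat arrays (Cy3), 3 for each of 4 groups. Per the file headers, version 11.0.1.1 placed the grid on the images and the probes are placed on build rn4. The submitters' processing notes name Agilent Feature Extraction 10.7.3.1. The processed signal is a linear intensity with background already subtracted, and mean signal and local background are intensity values too, per the file headers. The image software's flags per spot, other values of 0 or 1, stand in the same deposited files. In the authors' series matrix, 28902 probes have intensity values, with its scaling between arrays not stated. Its column medians were 7.02 to 7.14 on the log2 scale, its ranks followed the mean signal (rank correlation at least 0.999), and it served as an alternative.

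Here log2 was taken of the processed signal without outlier spots (224 to 359 of 58717 per array), averaged per probe and set against the 75th percentile of each array. Probes were kept when the 3 arrays of some group were all well above background (18997 of 30367). Probes were named by accession (18005), symbol (2668), synonym (547) or the file's own name (4963), and 4184 had none. The brightest kept probe stood for each of 14375 genes. A mean for each group was fitted with limma 3.58.1 in R 4.3.3 (with data.table, version 1.17.8), two-sided, with Benjamini-Hochberg adjustment. The fit was tested on simulated data. With 3 arrays per group their number limits the precision.

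The genes, lists and tests were chosen with earlier results of these data known. All 37 genes are accounted for, and up to 3 called genes per direction, time and list are named. Alternatives were quantile, array median and spike-in scaling, normexp with an offset of 50, the series matrix, no filter, slide as a block or alone, only the groups compared, replicate number as a block, every probe, and leaving out each array. Slide 2 alone was added after seeing the data. Replicate numbers did not pair the cultures: same-numbered arrays of different groups had correlations of their deviations between -0.11 and 0.10 (18 pairs).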

Additional observations from a re-analysis of the deposited data

Results flagged for a closer look

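For 11 results the difference between consecutive stretch times passed limma's test itself, so the change against control differed between the times. Gpx3 was lower at 6 h than at 2 h by 0.25 on the log2 scale (-0.25). Higher at 24 h than at 6 h were Srxn1 (0.60), Txn1 (0.27), Gss (0.25), Gclc (0.24), Me1 (0.24), Prdx1 (0.20) and Tkt (0.20). Lower at 24 h than at 6 h were Mt3 (-0.81), Gpx1 (-0.39) and Prdx5 (-0.16). Mt3 was well above background on 1 of 3 arrays at 24 h and on 3 of 3 at 6 h. Only Mt3 and Gpx1 of these 11 were called with slide as a block.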

How the results depend on the processing

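Counts below are of the 35 genes called, and percentages in parentheses are the shares of all genes called in the same setting. At 2 h (2 called) the count was 1 without the filter on dim probes (3.04%) and 1 to 2 when single arrays were left out (4.72% to 9.62%). At 6 h (5 called) it was 9 with array median scaling (18.4%) and 23 with spike-in scaling (49.0%). It was 8 each with normexp (16.2%), the series matrix (16.3%) and only the groups compared (15.6%). Leaving out single arrays gave 3 to 7, the lowest without 6 h replicate 1. At 24 h (16 called) it was 6 with slide as a block (14.2%) and 13 to 17 when single arrays were left out (40.1% to 49.3%). From 2 h to 6 h (1 called) it was 3 with quantile scaling and normexp, 2 with the series matrix, and 0 with array median or spike-in scaling, no filter, slide as a block, slide 1 alone or only the groups compared (limma; 7 genes, 20% of the 35, had an unadjusted p under 0.05, against 28.3% of all genes), and 0 to 1 with single arrays left out. From 6 h to 24 h (10 called) it was 16 with array median scaling (32.5%) and 1 with spike-in scaling (7.33%). Slide as a block gave 2 (7.60%), and single arrays left out gave 6 to 11 (16.6% to 25.9%). The F test (17 called) gave 6 with slide as a block (19.6%) and 12 to 19 with single arrays left out (44.7% to 51.7%). Slide 1 alone was not run for it. With the replicate number as a block, where no pairing was found, the counts were 3, 5, 17, 1, 12 and 17 in the same order. The shares of all genes were 7.19%, 15.3%, 46.2%, 7.87%, 23.2% and 49.7%.

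Spike-in scaling reversed Gss (0.48) and Sod3 (0.45) at 6 h, Prdx5 (0.29), Gpx1 (0.077), Gpx3 (0.15) and Gstm1 (0.22) at 24 h and Gpx3 between 2 h and 6 h (0.062). It also reversed Sesn1 (0.18), Ephx1 (0.084), Gstt2 (0.16), Nqo2 (0.22), Gstm4 (0.25), Oplah (0.064), Selenop (0.13) and Slc39a8 (0.061) at 6 h and Gstt2 (0.13) and Slc39a14 (0.057) at 24 h. Array median scaling reversed Prdx3 (0.17), Prdx5 (0.053) and Prdx6 (0.18) at 24 h. The spike-ins stood 0.27 to 0.74 log2 units above the 75th percentile on the 3 control arrays. Over all alternatives, 3767 results of the 35 genes stayed called or stayed uncalled, 107 gained a call, 106 lost one and 10 were reversed. A result counted as reversed when its sign changed and the main fit or the alternative called it. Sign changes of results called in neither fit are among the 3767, Txnip at 24 h with slide as a block being an example. The cause of these differences was not tested. Dim probes limit Mt3 and Gclm, and 3 arrays per group limit small changes.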
